A study of Mus musculus with 34 samples.

Results

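Colonic macrophages sorted from bone marrow chimeras with Il10ra-deficient cells that were given an antibody to Ly6G, the neutrophil surface antigen, were compared with those of wild-type chimeras. The comparison used 7 of the 34 RNA-seq libraries of the series, 3 titled ko_ly6g (numbers 5, 6 and 7) and 4 titled wt (numbers 1 to 4), and all 8793 genes of the table that held them. The same table held 3 libraries titled ko_igg (14, 16 and 18), read from the titles as Il10ra-deficient chimeras given a control IgG. They were used to compare the antibodies within the genotype. Per the labels all 10 libraries came from C57BL/6 mice 4 weeks after chimerism, and the cells were sorted from the colonic lamina propria as CD45+CD11b+CD11cintCD64+Ly6c-CD103-. The treatment label describes an anti-Ly6G injection in all 10 libraries, ko_igg and wt included, against the titles. The titles were followed here, in which ko names no gene and is read as Il10ra from the title of the series, and it cannot be told from the labels whether the wt chimeras received an antibody. The sources used here do not give the host strain, the driver of the deletion, the deleted part of the gene, the dose and timing of the antibody, or whether each library was 1 animal, so the p-values measure the spread between these libraries.

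IL-10 is an anti-inflammatory cytokine that acts on macrophages through a receptor whose ligand-binding chain is encoded by Il10ra. The receptor activates STAT3, which restrains inflammatory genes. Resident macrophages of the gut lie under the epithelium, are replenished from blood monocytes and depend on IL-10 to stay unresponsive to bacteria, and loss of the receptor in mice and humans is known for colitis. Neutrophils enter the inflamed colon in numbers, and antibody to Ly6G is used to remove them.

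The deposited values, called normalized values here, are read numbers that were scaled by a single factor for each library, and they carry no unit. Reads per library, recovered for 8 of the 10 libraries, ranged from 1028567 in wt 1 to 4525047 in ko_ly6g 5. The sort could be checked against defining macrophage genes: Csf1r, the receptor for the macrophage growth factor, had normalized values of 861, 2585 and 2020 in ko_ly6g, 1746, 1435 and 2175 in ko_igg, and 6828, 1743, 2780 and 1882 in wt. Epithelial transcripts were abundant in all 10 libraries, and Epcam, an epithelial adhesion protein, ranged from 1797 to 2828 in ko_ly6g, from 2358 to 3172 in ko_igg and from 887 to 2428 in wt. A list of 51 epithelial markers, 47 of them in the table, made up 3.40% to 4.39% of the summed values in ko_ly6g, 3.43% to 4.20% in ko_igg and 1.86% to 4.70% in wt. Both ko_ly6g 5 and wt 1 stood apart from the other libraries of their groups. The library wt 1 had the highest share of 37 resident macrophage markers, 6.64% against 2.49% to 2.94% in the other wt libraries, and the lowest epithelial share. Apoe, a lipid carrier and 1 of these markers, alone took 3.11% in wt 1 and 1.04% to 1.16% in the other wt libraries. The library ko_ly6g 5 had the lowest resident share of all, 1.17% against 2.41% and 2.43% in ko_ly6g 6 and 7. In these bulk samples fewer cells of a type and less RNA per cell cannot be told apart.

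**Figure D1:**
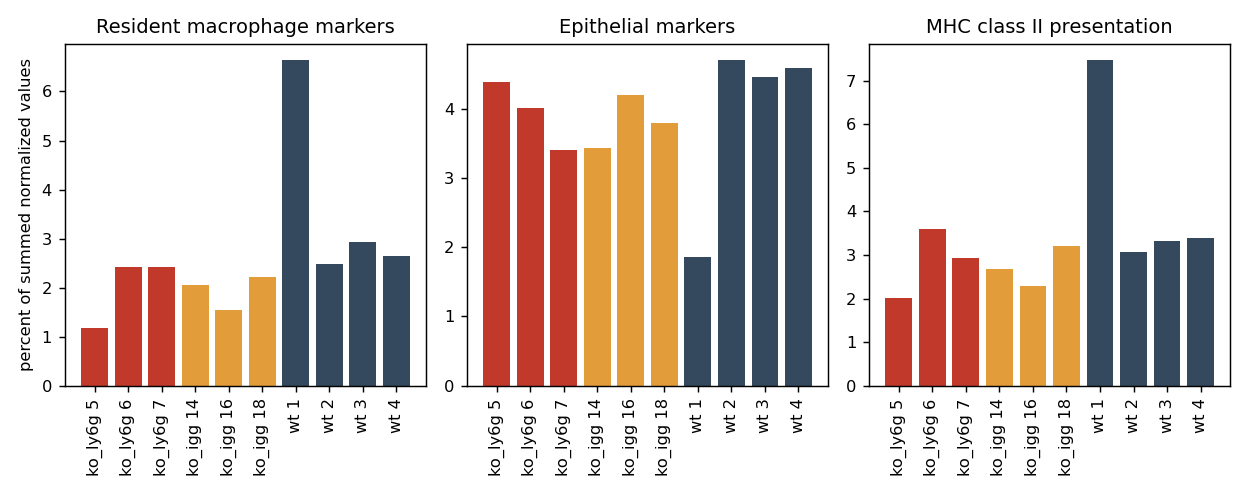
Share of the summed normalized values, in percent, taken by 3 gene lists in each of the 10 libraries, 1 bar per library, coloured by group. Resident markers reached 6.64% in wt 1 and stood at 1.17% in ko_ly6g 5, and the epithelial share was lowest in wt 1 at 1.86%.

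Il10ra, the gene named in the genotype, was lower in both chimera groups titled ko. Its normalized values were 32.2, 65.1 and 41.2 in ko_ly6g, 111, 77.9 and 87.7 in ko_igg, and 827, 247, 328 and 266 in wt. Every ko_ly6g library lay below every wt library, and below every ko_igg library. The log2 change of ko_ly6g over wt was -3.02 (SE 0.40, limma adjusted p = 0.00254) and kept an adjusted p of at most 0.0195 whichever of the 7 libraries was left out. Transcript of Ly6g itself, the antigen the antibody binds, had values of 35.8, 290 and 87.0 in ko_ly6g, 140, 203 and 54.6 in ko_igg, and 50.6, 74.2, 79.6 and 45.1 in wt. The groups overlapped (log2 change over wt 0.67, SE 0.63, limma adjusted p = 0.579). The sort takes CD64+ macrophages, so the Ly6g value in these libraries does not measure how far neutrophils were depleted in the tissue.

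In the sorted libraries of the anti-Ly6G-treated Il10ra-deficient chimeras, 12 of 28 tested genes of antimicrobial and oxidative defence were called, all higher. So were 8 of 20 of the interferon-γ response, 6 of 18 of MHC class I presentation and 8 of 24 of glycolysis and hypoxia. Of 28 resident macrophage markers 8 were called, all lower. Which cells of the sorted samples these transcripts came from was not tested. Of 6594 genes tested, 286 (4.34%) passed a limma adjusted p of 0.05, 197 of them higher (2.99%) and 89 lower (1.35%) in ko_ly6g. A change of at least 2-fold was seen in 134 of the higher and 68 of the lower genes. Of all tested genes 1386 (21%) had ko_ly6g and wt libraries that did not overlap. The 286 were called from these same libraries, so separation in 284 of them largely follows from the calling and adds no support. The genes with the largest rises and falls were also chosen among those with separate libraries. The median log2 change of all tested genes was 0.06. The count depended on single libraries: it was 103 without wt 3, 104 without ko_ly6g 7, 109 without ko_ly6g 6, 124 without wt 4, 137 without ko_ly6g 5 and 494 without wt 1, and with both wt 1 and ko_ly6g 5 left out, an alternative chosen after seeing the data, it was 695. A count test on recovered reads, which lacks wt 3, called 58 (edgeR) or 383 (DESeq2). Upper-quartile scaling moved the split to 144 higher genes of 251 called.

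**Figure D2:**
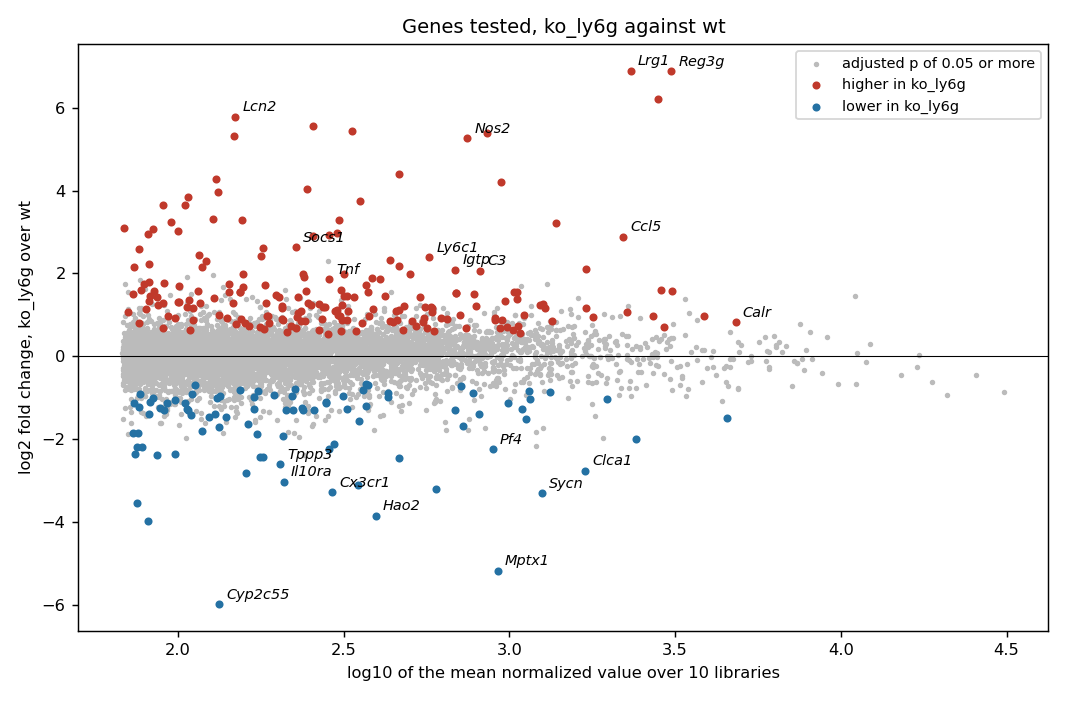
Log2 fold change of ko_ly6g over wt (vertical axis) against the log10 mean normalized value over the 10 libraries (horizontal axis) for the 6594 genes tested; red points are the 197 genes called higher and blue points the 89 called lower at a limma adjusted p under 0.05. Lrg1 and Reg3g lie highest, at 6.89 and 6.88, and Cyp2c55 lowest, at -5.98.

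Interferon-γ is a lymphocyte cytokine that activates macrophages and induces families of GTPases that attack vacuoles holding microbes. In a list of 24 interferon-γ GTPases and regulators, 8 of 20 tested members were higher in ko_ly6g and 0 lower, with a median log2 change of 1.43, against 2.99% of all tested genes called higher and a median of 0.06. The count was 3 without ko_ly6g 6, 11 without ko_ly6g 5, 4 by edgeR, 9 by DESeq2 and 16 without both ko_ly6g 5 and wt 1. The 4 named members carry in their promoters a sequence long known from interferon-induced genes, the interferon-stimulated response element, searched as GAAANNGAAA on both strands of the 250 bases before the start of the gene. Windows of 60 bases from these promoters are shown, from RefSeq on build GRCm38.p6 and on the gene's own strand. These 4 genes were named because they were called, so their shared rise follows from that choice. Of the 20 tested members 12 did not pass, and the changes of Gbp2b (-0.53) and Ifngr2 (-0.16) were negative. Capitals mark the matched letters, and in Igtp also a match of TTCNNNGAA, the palindrome bound by STAT factors.
Igtp, chr11:58199491-58199550, plus strand: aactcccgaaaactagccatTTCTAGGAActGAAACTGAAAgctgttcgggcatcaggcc
Gbp2, chr3:142620579-142620638, plus strand: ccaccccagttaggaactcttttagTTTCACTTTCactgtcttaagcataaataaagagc
Irgm1, chr11:48871421-48871480, minus strand: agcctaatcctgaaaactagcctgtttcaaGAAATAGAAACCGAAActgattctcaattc
Socs1, chr16:10785582-10785641, minus strand: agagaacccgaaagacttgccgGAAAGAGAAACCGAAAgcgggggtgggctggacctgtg
In Irgm1 and Socs1 the capitals cover 2 overlapping matches, and in Gbp2 the match is on the opposite strand. The letters GAAANNGAAA were found before 3.46% of the 27025 genes with an entry and before 3.18% of the 5163 tested genes with one. Of the 20 tested members of the list, 14 had an entry and 9 held the letters (64.3%), namely Gbp2, Gbp2b, Gbp3, Gbp5, Gbp7, Igtp, Irgm1, Irgm2 and Socs1. Members with and without a passed test were among them, and a match describes letters and not a bound site.

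Igtp, an immunity-related GTPase, had normalized values of 872, 916 and 949 in ko_ly6g against 238, 206, 172 and 246 in wt. The ko_ly6g libraries lay close together and far above the wt libraries, and the log2 change was 2.09 (SE 0.18, limma adjusted p = 0.000237). Gbp2, a guanylate-binding protein, had 421, 585 and 636 in ko_ly6g against 190, 98.1, 70.4 and 152 in wt (log2 change 2.17, SE 0.31, limma adjusted p = 0.00435). Socs1, the feedback inhibitor of interferon receptor signalling, had 164, 533 and 336 in ko_ly6g against 68.5, 45.8, 42.8 and 41.9 in wt (2.64, SE 0.35, limma adjusted p = 0.00254). In both genes the groups did not overlap, and the lowest ko_ly6g library was number 5. These 3 genes kept their calls with each library left out and by edgeR. Irgm1, a regulator of the GTPase family, had 532, 620 and 586 in ko_ly6g against 205, 226, 133 and 312 in wt. It rose by 1.46 on the log2 scale (SE 0.25, limma adjusted p = 0.0121), a call lost without ko_ly6g 6 (adjusted p = 0.0511) and by edgeR (0.0553). The other called members, named after their values were seen, were Ido1 (3.76), Iigp1 (3.07), Ifi47 (1.43) and Irf1 (1.25).

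Transcripts known from lymphocytes were found at low level beside these changes. Of 30 T and NK cell markers 6 were in the table, all below the filter on low values, and they summed to 0.00699% to 0.0134% of the values in ko_ly6g, 0.0103% to 0.0169% in ko_igg and 0.00243% to 0.00359% in wt. Ifng, the interferon-γ gene and a member of that list, had 13.7, 31.9 and 22.9 in ko_ly6g, 16.9, 64.5 and 20.49 in ko_igg, and 0, 1.83, 0.612 and 2.10 in wt. The ko_ly6g values lay above all wt values, and in the fit without a filter the log2 change of ko_ly6g over wt was 3.56 (limma adjusted p = 0.0236). Every gene in the table had reached at least 53.6 in some library, and Ifng did so only in ko_igg, at 64.5. Such a limit may favour low genes that are higher in the ko groups. The rise of Ifng and the shares of the 6 markers may therefore overstate the difference from wt. Whether lymphocytes in the sorted samples had a part in the interferon-γ list was not tested.

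Type I interferon-stimulated genes, a second antiviral programme, gave 1 higher and 0 lower of 19 tested members of a list of 33, with a median log2 change of 0.42. The share higher, 5.26%, rests on 1 gene, against 2.99% of all tested genes. The count was 5 without wt 1 and 6 without wt 1 and ko_ly6g 5. The called gene, Zbp1, a sensor of nucleic acids, had 347, 357 and 392.1 in ko_ly6g against 217, 147, 118 and 208 in wt (1.12, SE 0.22, limma adjusted p = 0.02), without overlap. Its call was lost without any 1 of the ko_ly6g libraries (adjusted p up to 0.0737). The list of MHC class I and immunoproteasome genes, whose products cut and present peptides to CD8 T cells, gave 6 higher and 0 lower of 18 tested members, with a median log2 change of 0.80. Its share higher was 33.3%, against the same 2.99%. Tap1, a subunit of the peptide transporter into the endoplasmic reticulum, had 1302, 1264 and 1298 in ko_ly6g against 735, 386, 401 and 500 in wt. The ko_ly6g libraries were nearly equal and above all wt libraries, wt 1 being the highest of those (1.40, SE 0.23, limma adjusted p = 0.0107). Psmb9, an immunoproteasome subunit, rose by 1.00 (SE 0.21, adjusted p = 0.027), Calr, the chaperone calreticulin, by 0.83 (SE 0.17, adjusted p = 0.0257), and H2-Q7, a non-classical class I gene with near-identical copies whose reads may have been split, by 1.53 (SE 0.32, adjusted p = 0.0256), all from limma. Of these 4 genes only Tap1 kept its call with each library left out. On recovered reads edgeR called 0 members of the list and DESeq2 called 5. The class I count was 1 without ko_ly6g 7 and 13 without wt 1. MHC class II presentation genes, which serve CD4 T cells and are abundant in gut macrophages, gave 0 higher and 0 lower of 9 tested, with a median log2 change of -0.40 that was -0.09 without wt 1 and 0.20 without wt 1 and ko_ly6g 5. Their share of the summed values was 2.02% to 3.60% in ko_ly6g, 2.30% to 3.22% in ko_igg and 3.06% to 7.47% in wt, where wt 1 held the highest value.

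**Figure D3:**
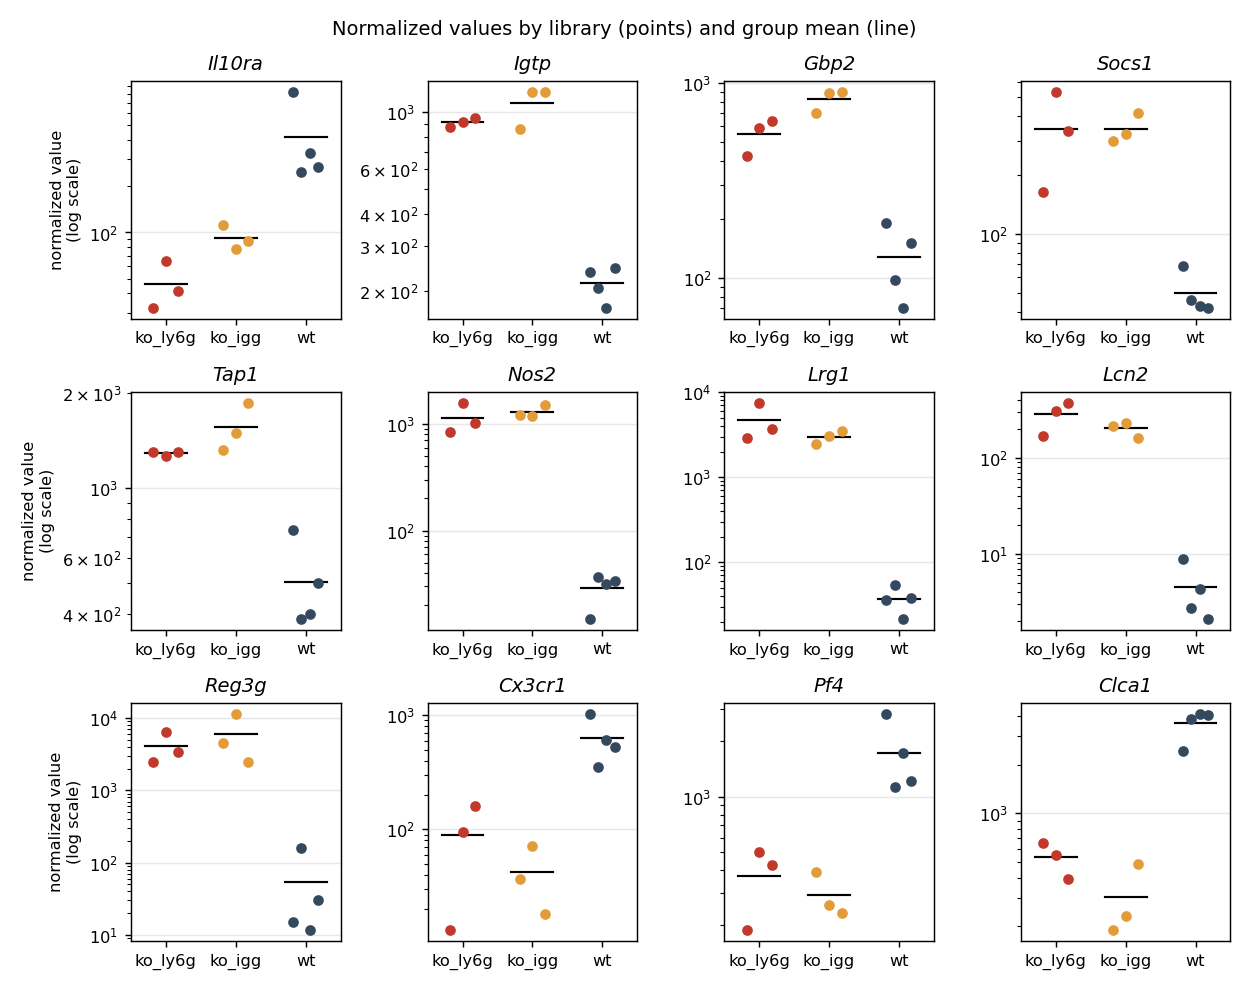
Normalized values of 12 genes on a log scale, with 1 point per library for ko_ly6g (3), ko_igg (3) and wt (4) and a line at the group mean. In each panel the ko_ly6g points do not overlap the wt points; Il10ra, Cx3cr1, Pf4 and Clca1 lie lower in ko_ly6g and the other 8 genes higher.

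Antimicrobial and oxidative defence held the largest rises. Of 28 tested members of a list of 32, 12 were higher and 0 lower in ko_ly6g, with a median log2 change of 1.12. The share higher was 42.9%, against 2.99% of all tested genes. The count was 9 without ko_ly6g 5, 9 by edgeR, 13 by DESeq2 and 14 without wt 1. Lrg1, a secreted acute-phase glycoprotein, had normalized values of 2925, 7481 and 3645 in ko_ly6g against 35.7, 53.2, 21.4 and 37.7 in wt. All ko_ly6g libraries lay far above all wt libraries (log2 change 6.89, SE 0.35, limma adjusted p = 7.49e-06). Nos2, the inducible nitric oxide synthase of activated macrophages, had 833, 1567 and 1027 in ko_ly6g against 14.9, 36.7, 31.8 and 33.5 in wt (5.27, SE 0.31, limma adjusted p = 1.74e-05). Lcn2, which binds bacterial iron carriers, had 170, 312 and 375 in ko_ly6g against 8.93, 2.75, 4.28 and 2.10 in wt (5.78, SE 0.44, limma adjusted p = 0.000122). The lowest wt value of Nos2 and the highest wt value of Lcn2 were both in wt 1, and neither gene overlapped between the groups. Duoxa2, the maturation factor of an epithelial oxidase, had 336, 603 and 372 in ko_ly6g against 41.7, 69.7, 53.9 and 50.3 in wt (2.97, SE 0.24, limma adjusted p = 0.000143). These 4 genes kept their calls with each library left out and by edgeR. S100a9, a calcium-binding protein best known as a major product of neutrophils, had 16.7, 796 and 925 in ko_ly6g, 305, 463 and 26.2 in ko_igg, and 8.93, 4.58, 1.84 and 3.15 in wt. The value in ko_ly6g 5 was near those of wt 1, and the log2 change of 5.55 had an SE of 1.36 (limma adjusted p = 0.0492). Its call was lost without ko_ly6g 6, ko_ly6g 7, wt 2, wt 3 or wt 4 (adjusted p up to 0.170), and without both ko_ly6g 5 and wt 1 the adjusted p was 0.00781. A list of 20 neutrophil markers, 9 of them in the table, summed to 0.0199% to 0.083% of the values in ko_ly6g, 0.0306% to 0.0632% in ko_igg and 0.0209% to 0.0322% in wt. Of its 6 tested members S100a9 and Lcn2 were higher (33.3%, against 2.99% of all tested genes), and the median log2 change was 0.41. Without the filter on low values 4 of 9 members were higher, against 257 of all 8793 genes, and the median was 2.17. The added members were S100a8, the partner of S100a9 (log2 change 5.66, limma adjusted p = 0.00218), and Ltf, the granule protein lactoferrin (4.12, adjusted p = 0.00751), each without overlap. Csf3r, the receptor for the neutrophil growth factor G-CSF, had 58.5, 147 and 156 in ko_ly6g against 193, 68.7, 107.1 and 69.2 in wt and overlapped. All 9 members with values had reached at least 53.6 in some library, which may favour genes high in 1 group. A part of remaining neutrophils in the values of these markers was not tested.

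Several of the genes with the largest changes are known chiefly from the intestinal epithelium. The list of epithelial markers had 5 members higher and 6 lower in ko_ly6g of 46 tested, with a median log2 change of 0.26, and it shares Reg3b and Reg3g with the defence list. Its shares were 10.9% higher and 13% lower, against 2.99% and 1.35% of all tested genes. The count of lower members was 3 without ko_ly6g 7, 3 by edgeR, 7 by DESeq2, 9 without wt 1 and 12 without wt 1 and ko_ly6g 5. The median turned to -0.10 without wt 1 and -0.04 without both. Its general markers did not pass: Epcam changed by 0.27 (SE 0.35, limma adjusted p = 0.691) and Krt8, a keratin, by 0.46 (SE 0.25, adjusted p = 0.334). Reg3g, a lectin that kills gram-positive bacteria, had 2436, 6419 and 3361 in ko_ly6g against 14.9, 160, 11.6 and 30.4 in wt. The wt library with the highest value was wt 2, and all ko_ly6g libraries lay above it (log2 change 6.88, SE 0.81, limma adjusted p = 0.00138). Reg3b, its relative, rose by 6.20 (SE 0.76, limma adjusted p = 0.00181), with 2715, 5022 and 3594 in ko_ly6g against 35.7, 248, 18.97 and 32.5 in wt. Its promoter is shown because it was the only gene among the 12 largest rises in which the STAT palindrome TTCNNNGAA was found, in capitals (60 bases, GRCm38.p6).
Reg3b, chr6:78370730-78370789, plus strand: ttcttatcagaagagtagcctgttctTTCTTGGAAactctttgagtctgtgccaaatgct
Those letters were found, on either strand, before 8.13% of the 27025 genes with an entry and before 3 of the 48 named genes with one (6.25%), the others being Igtp and Steap4. Plet1, an epithelial surface protein, had 1599, 2023 and 1266 in ko_ly6g against 68.5, 238, 50.2 and 64.0 in wt (4.22, SE 0.44, limma adjusted p = 0.000676). Clca4b, a chloride channel accessory protein of the gut surface with related copies, rose by 5.39 (SE 0.50, adjusted p = 0.000361), and Sprr2h, a small proline-rich protein with close copies, by 5.31 (SE 0.54, adjusted p = 0.000528), both from limma. These 5 genes kept their calls with each library left out and by edgeR.

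Among the falls, Mptx1, a mucosal pentraxin of the colon, had 12.5, 220 and 47.3 in ko_ly6g against 607, 2650, 2675 and 2970 in wt. The lowest wt library was wt 1, and the groups did not overlap (log2 change -5.17, SE 0.90, limma adjusted p = 0.0132). Cyp2c55, a cytochrome P450 of the colon, had 7.76, 9.83 and 0 in ko_ly6g against 113, 344, 305 and 546 in wt, with a fitted log2 change of -5.98 (SE 1.19, limma adjusted p = 0.0224) that rests on few reads. Clca1, a secreted goblet cell protein, had 653, 556 and 392.1 in ko_ly6g against 2429, 3835, 4117 and 4077 in wt (-2.76, SE 0.33, limma adjusted p = 0.00165). In these genes too, wt 1 was the lowest wt library. Sycn, a protein of secretory granules, had 221, 443 and 191 in ko_ly6g against 1557, 1999, 4077 and 3711 in wt (-3.30, SE 0.41, limma adjusted p = 0.00183). Hao2, a peroxisomal hydroxyacid oxidase, had 35.2, 112 and 38.1 in ko_ly6g against 229, 1104, 1065 and 1341 in wt (-3.84, SE 0.58, limma adjusted p = 0.00647). Both groups were again separate, with ko_ly6g 6 the highest of its group. Reg4, a lectin of secretory epithelial cells, fell by 3.20 on the log2 scale (SE 0.58, limma adjusted p = 0.0166). The calls of Clca1, Sycn and Hao2 held with each library left out and by edgeR. The call of Mptx1 was lost without ko_ly6g 7 (adjusted p = 0.0542), that of Reg4 without ko_ly6g 5, ko_ly6g 7 or wt 3 (up to 0.0637) and that of Cyp2c55 without wt 2, wt 3 or wt 4 (up to 0.116). Epithelial RNA was present in every library, and its part in the changes of these genes was not tested.

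Tac1, Mmp7, Tppp3, Nov, Sult1a1 and Ecm1, which are in none of the gene lists, were also among the largest changes. Tac1, which encodes the precursor of the neuropeptide substance P, had 532, 1815 and 860 in ko_ly6g against 17.9, 67.8, 52.6 and 56.6 in wt, without overlap (log2 change 4.39, SE 0.49, limma adjusted p = 0.000901). Mmp7, the secreted protease matrilysin, had 140, 44.2 and 111 in ko_ly6g against 2.98, 5.50, 1.84 and 5.24 in wt (4.28, SE 0.72, limma adjusted p = 0.0112), a call lost without ko_ly6g 7 (0.0557). Tppp3, a tubulin-binding protein, had 51.3, 71.2 and 82.4 in ko_ly6g against 482, 446, 398 and 331 in wt (-2.60, SE 0.25, limma adjusted p = 0.000402). The wt values of Tppp3 lay close together, wt 1 included, and all ko_ly6g values lay below them. Nov, a matricellular protein, fell by 2.82 (SE 0.42, adjusted p = 0.0052), Sult1a1, a sulfotransferase, by 3.11 (SE 0.60, adjusted p = 0.02), and Ecm1, an extracellular matrix protein, by 2.46 (SE 0.44, adjusted p = 0.0152), all on the log2 scale and from limma. The calls of Tac1, Tppp3, Nov and Ecm1 held with each library left out, but that of Ecm1 was lost by edgeR (adjusted p = 0.0812) and with only the ko_ly6g and wt libraries in the limma fit (0.0533). The call of Sult1a1 was lost without ko_ly6g 6, ko_ly6g 7, wt 3 or wt 4 (adjusted p up to 0.0762).

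Of 28 tested members of the list of resident macrophage markers, 8 were lower in ko_ly6g, 0 were higher and 20 did not pass, with a median log2 change of -1.02, against 1.35% of all tested genes called lower; the libraries did not overlap in 15 members, all lower, against 7.22% of all tested genes separate in that direction and 13.8% separate in the other. The count was 2 without wt 3, 2 by edgeR and 10 by DESeq2, and 8 both without wt 1 and without wt 1 and ko_ly6g 5 together. The list's median depended more on those libraries: it was -0.46 without the pair, and the summed share of the list was 2.41% and 2.43% in ko_ly6g 6 and 7 against 2.49%, 2.94% and 2.65% in wt 2, 3 and 4. Of that share Apoe alone took 0.98% and 1.1% in ko_ly6g 6 and 7 and 1.04%, 1.07% and 1.16% in wt 2, 3 and 4. The sum thus says little about the other members. Cx3cr1, the fractalkine receptor of resident gut macrophages, had 13.1, 95.8 and 162 in ko_ly6g against 1024, 355, 605 and 532 in wt. The groups were separate, with ko_ly6g 5 the lowest and wt 1 the highest (log2 change -3.27, SE 0.75, limma adjusted p = 0.038). Its call was lost without each library except ko_ly6g 7 (adjusted p up to 0.0904), and without both wt 1 and ko_ly6g 5 the log2 change was -1.95 (adjusted p = 0.0565). Pf4, a chemokine of platelets that resident macrophages also make, had 188, 497.4 and 424 in ko_ly6g against 2819, 1133, 1741 and 1214 in wt (-2.24, SE 0.39, limma adjusted p = 0.0134). Fcrls, an Fc receptor-like protein, had 3.58, 17.2 and 13.7 in ko_ly6g against 351, 98.1, 195 and 112 in wt (-3.96, SE 0.75, limma adjusted p = 0.0186). Both genes were separate between the groups. Cd81, a tetraspanin, fell by 1.03 on the log2 scale (SE 0.20, limma adjusted p = 0.0199). The call of Pf4 held with each library left out but not by edgeR (adjusted p = 0.0857), that of Fcrls was lost without wt 3 or wt 4 (up to 0.0807), and that of Cd81 without ko_ly6g 5, ko_ly6g 7 or wt 3 (up to 0.0711). Core lineage genes did not pass: Csf1r changed by -0.77 (SE 0.49, limma adjusted p = 0.407), and C1qa, a complement subunit made by tissue macrophages, by -0.66 (SE 0.43, limma adjusted p = 0.418), with overlapping libraries in both.

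Monocyte markers went in both directions, with 4 higher and 2 lower of 15 tested and a median log2 change of 0.61. Their shares were 26.7% higher and 13.3% lower, against 2.99% and 1.35% of all tested genes. Ly6c1, a surface protein close in sequence to Ly6c2, had 393, 819 and 740 in ko_ly6g against 101, 150, 121 and 102 in wt (2.40, SE 0.33, limma adjusted p = 0.0033). Clec4e, the mycobacterial cord factor receptor Mincle, had 66.2, 90.9 and 198 in ko_ly6g against 26.8, 3.67, 9.79 and 8.39 in wt (3.33, SE 0.55, limma adjusted p = 0.0109). In each the lowest ko_ly6g library was number 5, and it lay above all wt libraries. Hp, the haemoglobin-binding haptoglobin, rose by 3.96 (SE 0.77, adjusted p = 0.0203) and Ly6c2 by 1.15 (SE 0.25, adjusted p = 0.0295), while Fn1, fibronectin, fell by 1.26 (SE 0.28, adjusted p = 0.0358) and Nr4a1, a nuclear receptor of patrolling monocytes and an immediate-early gene, by 0.89 (SE 0.22, adjusted p = 0.0495), all from limma. Of these 6 genes Ly6c1 alone kept its call with each library left out. The gate excludes cells with surface Ly6C, and reads of Ly6c1 and Ly6c2 may have been split between the copies.

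**Figure D4:**
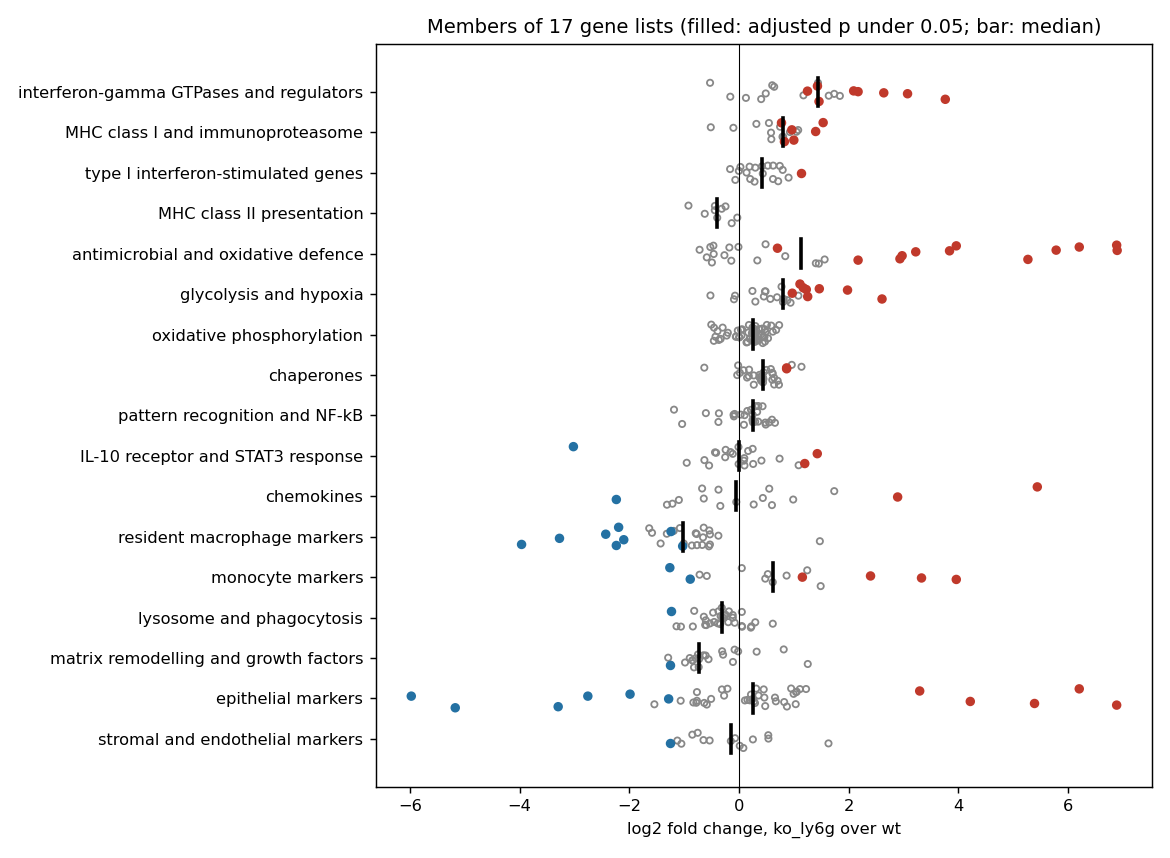
Log2 fold change of ko_ly6g over wt for each tested member of 17 gene lists, 1 point per gene, filled red or blue where the gene was called higher or lower at a limma adjusted p under 0.05, with a bar at the list's median. The interferon-γ list has its median at 1.43, the resident macrophage list at -1.02, and the called epithelial markers lie at both ends.

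Macrophage cytokines did not move together. Tnf, a central inflammatory cytokine, had 200, 434 and 439 in ko_ly6g against 149, 80.7, 61.8 and 96.4 in wt. The groups did not overlap (log2 change 1.86, SE 0.34, limma adjusted p = 0.016), and the call was lost without ko_ly6g 6 or ko_ly6g 7 (adjusted p up to 0.067) and by edgeR (0.0907). Il1b, the secreted product of inflammasome activation, had 350, 2932 and 1761 in ko_ly6g against 3078, 1663, 2459 and 2390 in wt and did not pass (-0.94, SE 0.71, limma adjusted p = 0.48). The low value was in ko_ly6g 5, and without that library and wt 1 the log2 change was 0.09 (adjusted p = 0.953). Of 6 tested members of a list of 20 cytokines 2 were higher, Tnf and Tnfsf9, the ligand of the co-stimulatory receptor 4-1BB (1.36, SE 0.33, limma adjusted p = 0.0492, lost without any of 5 libraries), and 0 lower. The share of cytokines called higher, 33.3%, rests on these 2 genes, against 2.99% of all tested genes. Il23a, Il12b, Il1a and Il6 had no values that could be analysed here.

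Of 17 tested chemokines 2 were higher and 1 lower, Pf4, with a median log2 change of -0.05. Their shares, 11.8% and 5.88%, stand against 2.99% of all tested genes higher and 1.35% lower. Cxcl5, which attracts neutrophils, had 139, 1416 and 485 in ko_ly6g against 23.8, 7.33, 2.45 and 16.8 in wt. The groups were separate (log2 change 5.44, SE 0.77, limma adjusted p = 0.00395), and the call held with each library left out and by edgeR. Ccl5, which attracts T cells, had 777, 1643 and 4903 in ko_ly6g against 780, 112, 268 and 160 in wt. The lowest ko_ly6g library lay just under wt 1, and the call of the log2 change, 2.89 (SE 0.69, limma adjusted p = 0.0437), was lost without ko_ly6g 6, ko_ly6g 7, wt 2, wt 3 or wt 4 (adjusted p up to 0.133), while the change itself stayed between 2.19 and 3.51 with 1 library left out. Complement genes gave 2 higher (15.4%, against 2.99% of all tested genes) and 0 lower of 13 tested. C3, the central complement component, had 774, 1170 and 1143 in ko_ly6g against 491.1, 172, 189 and 207 in wt (2.07, SE 0.33, limma adjusted p = 0.00814), and Cfb, the protease of the alternative pathway, had 968, 1032 and 1219 in ko_ly6g against 563, 363, 395 and 385 in wt (1.35, SE 0.19, limma adjusted p = 0.00412). Both were separate between the groups with wt 1 the highest wt library, and both held with each library left out but not by edgeR (adjusted p = 0.0997 for C3 and 0.0718 for Cfb).

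Genes of the IL-10 receptor and its STAT3 response gave 2 higher and 1 lower, Il10ra, of 23 tested, with a median log2 change of -0.01. These few genes made shares of 8.7% and 4.35%, against 2.99% of all tested genes higher and 1.35% lower. Without wt 1 and ko_ly6g 5 the list gave 5 higher and a median of 0.52. Bcl3, a nuclear IκB protein induced by IL-10, had 734, 908 and 610 in ko_ly6g against 441, 260, 379 and 248 in wt (1.20, SE 0.23, limma adjusted p = 0.02). Tnip3, an inhibitor of NF-κB signalling, had 268, 372 and 224 in ko_ly6g against 65.5, 113, 125 and 128 in wt (1.43, SE 0.27, limma adjusted p = 0.02). Both were higher in ko_ly6g without overlap, and both calls were lost without ko_ly6g 5 or ko_ly6g 6, that of Bcl3 also without wt 4 (adjusted p up to 0.087). Pattern recognition and NF-κB genes, which sense bacteria, gave 0 higher and 0 lower of 28 tested, with a median log2 change of 0.25. The list gave 1 higher without wt 1 and 5 without wt 1 and ko_ly6g 5.

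Glycolysis and hypoxia genes, which activated macrophages raise to make ATP and lactate, gave 8 higher and 0 lower of 24 tested, with a median log2 change of 0.81. The share higher was 33.3%, against 2.99% of all tested genes. Slc2a1, the glucose importer GLUT1, had 539, 637 and 471 in ko_ly6g against 211, 244, 256 and 305 in wt (1.11, SE 0.19, limma adjusted p = 0.0111). Slc16a3, the lactate exporter MCT4, had 274, 162 and 221 in ko_ly6g against 98.2, 26.6, 31.2 and 16.8 in wt (2.61, SE 0.47, limma adjusted p = 0.0152). Both genes were separate between the groups. Bnip3, a mitophagy receptor induced in hypoxia, rose by 1.46 (SE 0.28, adjusted p = 0.02) and Ero1l, an endoplasmic reticulum oxidase, by 1.25 (SE 0.22, adjusted p = 0.0134), both from limma. Each of these 4 calls was lost on leaving out at least 1 library (adjusted p up to 0.0762). The list's count was 2 without ko_ly6g 5 and 11 without wt 1, and edgeR called 0 members and DESeq2 9. These genes are also expressed by epithelial cells, whose share was 1.86% in wt 1, 4.70%, 4.46% and 4.59% in wt 2, 3 and 4 and 3.40% to 4.39% in ko_ly6g. The glycolysis list itself made up 0.33%, 0.47%, 0.47% and 0.44% of the summed values in wt 1 to 4. In ko_ly6g it made up 0.70% to 0.86%. A part of epithelial RNA in the changes of this list was not tested. Oxidative phosphorylation subunits gave 0 calls of 56 tested and a median of 0.25, and cytosolic ribosomal proteins 0 of 55 and a median of -0.26.

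Iron and haem genes gave 2 higher (15.4%) and 1 lower (7.69%) of 13 tested, against 2.99% and 1.35% of all tested genes. Steap4, a metalloreductase, had 192, 173 and 117 in ko_ly6g against 8.93, 17.4, 15.9 and 25.2 in wt (3.23, SE 0.35, limma adjusted p = 0.000676), without overlap, and held with each library left out and by edgeR. Hfe, a regulator of iron uptake, fell by 0.98 on the log2 scale (SE 0.23, limma adjusted p = 0.0434). Chaperones gave 2 higher of 32 tested, Dnajb11 and Dnajb1 (0.87 each, limma adjusted p = 0.0189 and 0.0257), with a median of 0.44. Cell cycle genes gave 2 higher, Ccna2 (1.28) and Ccnd3 (0.55), and 1 lower, Ccnd2 (-1.14), of 31 tested, with limma adjusted p from 0.0309 to 0.0495. Immediate-early genes, which tissue dissociation is known to induce, gave 2 lower of 27 tested, Nr4a1 and Egr1 (-0.86, SE 0.21, limma adjusted p = 0.0495), and a median of -0.23. The calls of Hfe, Dnajb11, Dnajb1, Ccna2, Ccnd3, Ccnd2, Nr4a1 and Egr1 were each lost on leaving out any of at least 4 libraries. The counts of the chaperone, cell cycle and immediate-early lists each reached 0 with 1 library left out, against 2.99% of all tested genes called higher and 1.35% called lower in the fit of all libraries. Matrix remodelling genes gave 1 lower, Fn1, of 23 tested and a median of -0.73. Fc receptors gave 1 lower, Fcrls, of 7 tested. Stromal markers gave 1 lower of 15 tested, Col6a2, a collagen VI chain (-1.26, SE 0.31, limma adjusted p = 0.0482), a call lost without any 1 of 6 libraries (adjusted p up to 0.144) and by edgeR (0.154). Lipid handling (21 tested), prostanoid and leukotriene enzymes (10), dendritic cell markers (10) and B and plasma cell markers (6) gave 0 higher and 0 lower.

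By their titles ko_ly6g and ko_igg differ in the antibody, but the treatment label describes anti-Ly6G for both. Between these groups limma called 0 of 6594 genes (0%). Of these genes 127 had an unadjusted limma p under 0.05. The count tests on recovered reads, which lack ko_igg 16, also called 0. They had 47 (edgeR) and 69 (DESeq2) genes at an unadjusted p under 0.05. The median log2 difference of all tested genes was -0.001. Without ko_ly6g 5 and wt 1, limma called S100a1 (1.52) and Hao2 (2.86), both higher in ko_ly6g with an adjusted p of 0.0459. With at most 3 libraries a group, a p that misses the threshold does not show that the antibody left these genes alike. The differences of ko_ly6g over ko_igg were 0.53 for Lrg1, -0.43 for Reg3g, -0.23 for Nos2, -0.24 for Igtp and 0.26 for Pf4 on the log2 scale, each with a limma adjusted p of 0.9998 in this fit. Larger differences with the same adjusted p were -1.47 for Mmp7 and 1.21 for Tac1, with overlapping libraries, and 1.45 for Sycn and 1.24 for Nov, in which every ko_ly6g library lay above every ko_igg library. Every ko_ly6g library lay below every ko_igg library in Clec4e (-1.42), Hp (-1.23), Il10ra (-1.03), Fn1 (-0.86), Gbp2 (-0.61) and Slc16a3 (-0.60). The same held for Cfb (-0.58), H2-Q7 (-0.54), C3 (-0.40) and Tap1 (-0.26), all with a limma adjusted p of 0.9998. How many of all tested genes were separate between these groups was not counted. The separations named here are therefore not read as an effect of the antibody. Cyp2c55 had too few reads in both groups for a fold. The largest among the other named genes were 2.57 for Hao2 and 2.38 for Mptx1, whose values were 8.06, 8.38 and 7.97 and 3.23, 20.7 and 10.2 in ko_igg, below those of the ko_ly6g libraries in Hao2 and overlapping them in Mptx1.

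Against the same 4 wt libraries, ko_igg gave 606 called genes (9.19%), 378 higher (5.73%) and 228 lower (3.46%). Because both comparisons use these wt libraries, they are not independent, and their values are given side by side. The log2 change over wt was 6.89 in ko_ly6g and 6.36 in ko_igg for Lrg1, 5.27 and 5.50 for Nos2, 2.09 and 2.32 for Igtp, 1.40 and 1.66 for Tap1, 1.86 and 2.31 for Tnf, and -3.27 and -3.96 for Cx3cr1, in that order of groups. Il10ra changed by -3.02 in ko_ly6g and by -1.99 in ko_igg. For gene lists the median log2 changes over wt were 1.43 in ko_ly6g and 1.48 in ko_igg for the interferon-γ list, 0.81 and 1.02 for glycolysis, and -1.02 and -1.10 for resident markers. Fn1 was called in ko_ly6g and not in ko_igg (-0.40, limma adjusted p = 0.394), and its difference between the chimera groups, -0.86, did not pass a test.

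**Figure D5:**
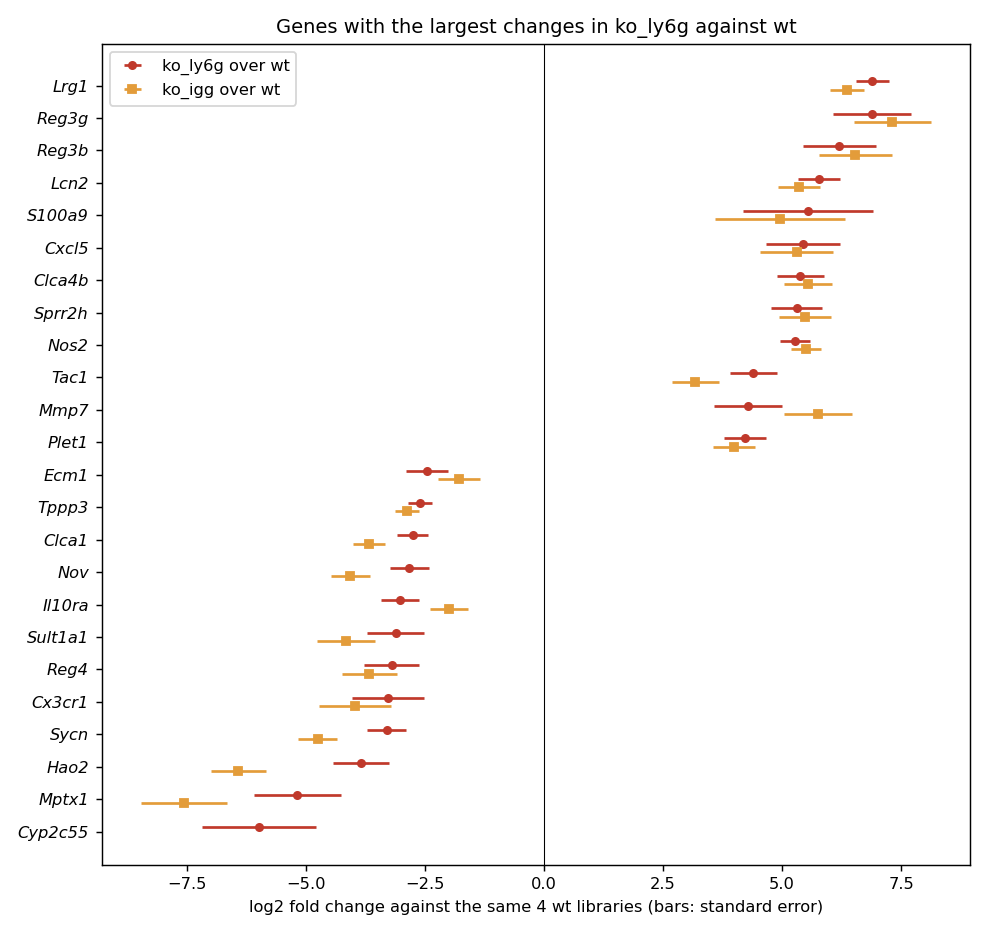
Log2 fold change over the same 4 wt libraries in ko_ly6g (circles) and ko_igg (squares) with standard errors, for the 12 genes with the largest rises and the 12 with the largest falls in ko_ly6g; no ko_igg value is drawn for Cyp2c55, which had too few reads there. The top gene, Lrg1, lies at 6.89 in ko_ly6g and 6.36 in ko_igg, and Mptx1, near the bottom, at -5.17 and -7.55.

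A separate table of the series held colonic macrophages of mice labelled untreated, 3 libraries titled IL10R and 3 titled CXhet, and shares no library with the chimeras. In it 588 of 6766 tested genes (8.69%) passed, 309 higher (4.57%) and 279 lower (4.12%) in IL10R. Of 5976 genes tested in both tables, 68 were higher and 50 lower in both comparisons, and 1 went opposite ways, Creld2, an endoplasmic reticulum protein (0.90 in ko_ly6g over wt and -0.83 in IL10R over CXhet; named after its values were seen). The shared genes were 43.9% of the 155 higher in ko_ly6g and 26.7% of the 255 higher in IL10R, and 56.8% of the 88 lower in ko_ly6g and 22.4% of the 223 lower in IL10R. The log2 change was 6.89 in ko_ly6g over wt and 6.13 in IL10R over CXhet for Lrg1, 5.27 and 6.69 for Nos2, 2.09 and 2.45 for Igtp, 1.40 and 2.51 for Tap1, -2.24 and -2.91 for Pf4, and -3.30 and -4.26 for Sycn, called in both tables. Calr (0.09, limma adjusted p = 0.843) and Bcl3 (0.36, adjusted p = 0.304) were called in ko_ly6g and not in IL10R, and whether their changes differ between the tables was not tested, because the tables were normalized separately.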

How the data were processed

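Messenger RNA of sorted colonic macrophages was taken up on oligo-dT beads, copied and amplified with T7 polymerase, and broken into short fragments before sequencing, as the labels' protocols state. Per the submitters' processing notes, bcl2fastq, HISAT 0.1.6 and HOMER were used with the mouse build mm9. Their order, the annotation, whether strand was used, and the handling of reads shared by gene copies were not given in the sources used here. The deposited signal values are read numbers scaled by a single factor for each library, which was found from the values themselves: 100% of them were whole reads within 0.01 read in 8 of the 10 libraries (not claimed for ko_igg 16 and wt 3). A shift shared by all genes is lost in such scaling. The lowest gene of the table reached 53.6 in its highest library, so genes low everywhere were not analysed here. Among libraries with recovered reads, no 2 of a group agreed within sampling noise (lowest chi-square per degree of freedom 4.92). Pairs with ko_igg 16 or wt 3 could not be checked.

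Tests ran on log2(value + 0.982), which understates changes of low genes, and genes with a mean up to 68.0, the lower quartile, were removed. The 10 libraries were fitted together in limma 3.58.1 under R 4.3.3, with trended and robust variances, and a gene was called where its adjusted p (Benjamini-Hochberg) lay under 0.05. The table of IL10R and CXhet was fitted separately (pseudocount 1.31, means up to 53.2 removed). The count tests ran as alternatives on the recovered reads, with edgeR 4.0.16 and DESeq2 1.42.0. The fit was tested on simulated data.

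Named genes were Il10ra and the listed cytokines, then the 12 largest rises and 12 largest falls among called genes above the median mean with separate groups, then from each of 32 lists at most 4 called members with the smallest adjusted p, which gave 65 genes. Members and lists were chosen with earlier results of these data known. Alternatives changed the filter, pseudocount, scaling, model, groups in the fit and test, and left out each library. Mast cell, basophil and eosinophil markers had 0 of 18 members above the filter.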

Additional observations from a re-analysis of the deposited data

Results flagged for a closer look

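In 10 of the 65 named genes 1 wt library stood far from the other 3 on the log2 scale, where its gap to the nearest of them, divided by the range of the group, was above Dixon's 95% critical value. Chance passes that value in about 1 of 20 groups. In 9 of them that library was wt 1. It was the lowest for Nos2 (gap 0.841 of the range), Mptx1 (0.928), Hao2 (0.869), Reg4 (0.975), Sult1a1 (0.844), Clca1 (0.866), Fn1 (0.846) and Ccnd2 (0.877), and the highest for Psmb9 (0.835). In Ccnd3 the library wt 4 was the lowest (0.952). The values of wt 1 were 14.9 for Nos2, against 31.8 to 36.7 in the other wt libraries, 423 for Reg4, against 1588 to 1642, and 571 for Psmb9, against 377 to 404. All 10 genes kept the direction of their change in ko_ly6g over wt when wt 1 was left out.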

How the results depend on the processing

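The count of genes called in ko_ly6g over wt, 286, was 91 with only these groups in the fit, 58 with edgeR, 103 to 494 with 1 library left out and 695 without wt 1 and ko_ly6g 5 together, which was chosen after seeing the data; other alternatives gave 235 to 403. The 0 calls of ko_ly6g over ko_igg held in every alternative but that last one, with 2. The 606 calls of ko_igg over wt were 56 with edgeR, 205 to 1046 with 1 library left out and 1550 without wt 1 and ko_ly6g 5. The 588 calls of IL10R over CXhet were 201 to 592 with 1 library left out. The 118 calls shared with that table were 181 with no filter, 48 to 190 with 1 library left out and 252 without wt 1 and ko_ly6g 5. The cause of these shifts was not tested, except that leaving out libraries and edgeR use fewer samples. Of 64 named called genes 28 kept their call with each library left out, 23 of them by edgeR too. Of 65 named genes, 26 kept direction and side of the threshold with edgeR and 64 with DESeq2, on the same reads. Of 1153 values of named genes under alternatives, 936 kept direction and side of the threshold, 216 lost their call and 1 changed sign, Il1b (0.0876 without wt 1 and ko_ly6g 5). Upper-quartile scaling moved the median log2 change of all genes to -0.01 and quantile normalization to 0.03.

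No paired analysis was possible because the ko_ly6g, ko_igg and wt libraries share no replicate number. In the separate table, deviations of same-numbered libraries correlated at -0.06, 0.15 and 0.35, so numbers were not taken to pair them; a fit with the replicate block called 808 genes.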
